A study of Drosophila melanogaster with 16 samples.

Results

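Matrix metalloproteases are zinc-dependent enzymes that cut proteins of the extracellular matrix, and TIMPs are the secreted proteins that bind and block them. Drosophila has only Mmp1 and Mmp2 in the first family and only Timp in the second. In imaginal discs Mmp1 is known as a target of the JNK stress kinase pathway through AP-1, and it is the classic invasion marker of Ras-driven tumours with broken polarity, where it helps to break down the basement membrane. Mmp2 is anchored to the cell surface and is known for tissue remodelling at metamorphosis.

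These 3 genes were followed by their FlyBase identifiers, FBgn0035049 for Mmp1, FBgn0033438 for Mmp2 and FBgn0025879 for Timp, and all 3 were found among the 11196 features of a custom 2-colour microarray. The symbols come with the list of identifiers by which the genes were chosen. The RefSeq gene table (Release 6) holds all 3 symbols but could not be joined to these identifiers. In that table Mmp1 and Mmp2 lie on chromosome arm 2R and Timp on 3R. Timp lies within the bounds of Syn (the synapsin gene), and Mmp1 overlaps Pof. Mmp2 overlaps 5 annotated genes, among them mir-307a and mir-307b. Mmp1 has 10 RefSeq transcripts, Mmp2 has 3 and Timp has 1. The sources used here do not say which part of a gene its probe covers, so a value stands for the gene as a whole and its isoforms cannot be told apart.

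The samples were tumours grown from mutant clones in the eye-antennal discs of larvae kept at 25 °C. The 4 genotypes were RasV12cdc42- (activated Ras with loss of cdc42), RasV12baz- (activated Ras with loss of baz), RafGOFscrib- (gain-of-function Raf with loss of scrib) and RasV12scrib- (activated Ras with loss of scrib). Each had 4 arrays, described as biological replicates, on which tumour RNA of day 10 was set against RNA of wild-type eye-antennal discs of day 5 to 6, with 30 to 40 discs pooled per extract. Age and tumour therefore cannot be told apart in any comparison with wild-type. All 4 genotypes combine an activated oncogene with the loss of a polarity gene, and no genotype with 1 of these changes alone was analysed here. The sources used here do not say how the clones and transgenes were driven.

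RafGOFscrib- replicates 1 and 2 held identical values for 95.1% of features, while no other pair shared more than 0.143%, so their mean was counted as 1 replicate. That left 15 replicates, 3 for RafGOFscrib- and 4 for each other genotype. Values are log2 ratios, and a positive one is read as higher in the tumour, which is likely from the order of the channels but is not stated. If the ratios ran the other way, each higher below would be lower by the same amount. The zero of an array is the authors' own: the median of all features lay between -0.12 and 0.48 on single arrays. None of 14 eye-antennal disc marker genes could be tied to a feature by name, nor any of 12 haemocyte, 12 muscle, 7 tracheal or 6 glial markers, so the cell makeup of the tumours was not tested. In such bulk RNA more cells of a type and more RNA per cell cannot be told apart.

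Mmp1 was far above wild-type in every tumour genotype. Its log2 ratio was 4.49, 4.87, 4.40 and 4.23 on the RasV12cdc42- arrays, 5.48, 4.76, 2.94 and 3.69 on the RasV12baz- arrays, 3.48, 3.13 and 2.77 on the RafGOFscrib- replicates, and 3.04, 3.04, 3.22 and 3.67 on the RasV12scrib- arrays, where the wild-type RNA of the same array stands at 0. The lowest of these, in RafGOFscrib- replicate 4, was 6.80-fold and the highest, in RasV12baz- replicate 1, was 44.5-fold. No replicate came near 0, and 4.97% of all features were above 0 on each of the 15. Ranked by its lowest value over the 15 replicates, Mmp1 stood first of the 11196 features. Only 2 features, or 0.0179%, were over 4-fold on every replicate, and Mmp1 was 1 of them.

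**Figure D1:**
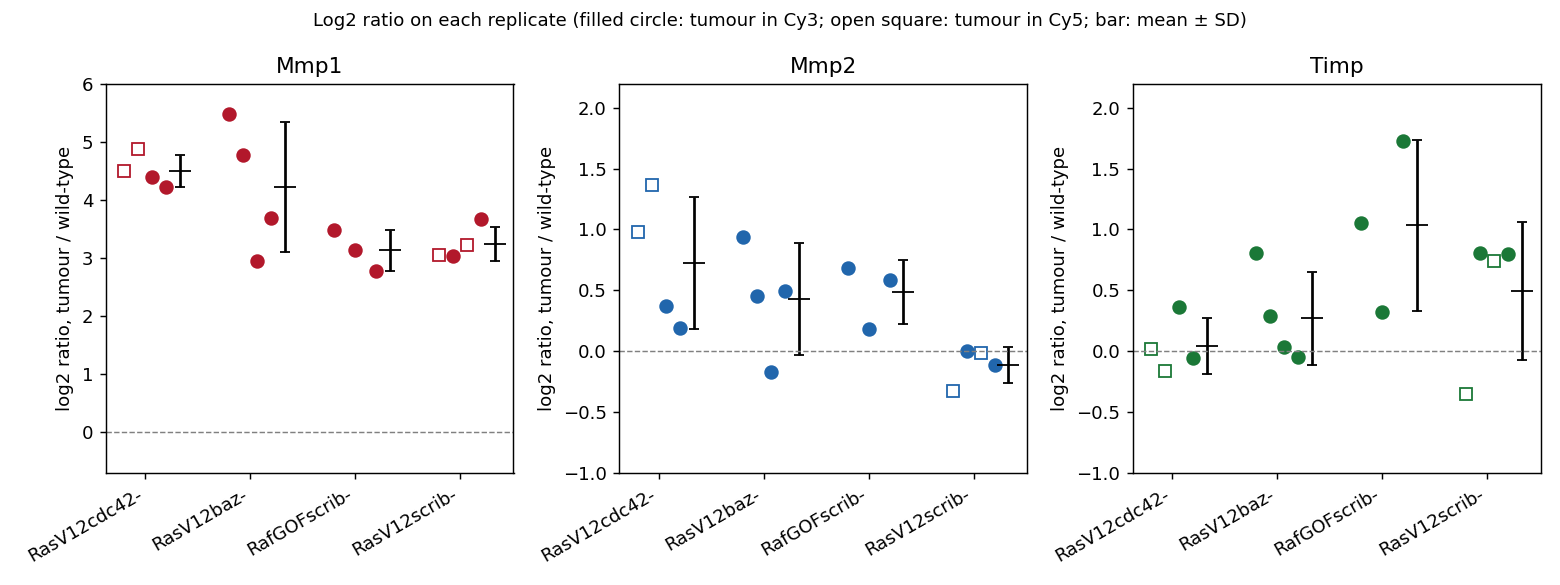
Log2 ratio of tumour over wild-type (y axis) of Mmp1, Mmp2 and Timp on each replicate of the 4 genotypes, with the mean ± SD as a bar and with open squares for arrays that carried tumour RNA in Cy5. All 15 Mmp1 values lie between 2.77 and 5.48, whereas Mmp2 and Timp lie between -0.35 and 1.73.

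In the fit over all features Mmp1 rose by 4.49 ± 0.28 on the log2 scale in RasV12cdc42- (SE, n = 4, 22.5-fold, adjusted p = 7.63e-09) and by 4.25 ± 0.34 in RasV12baz- (n = 4, 19.1-fold, adjusted p = 2.83e-07). It rose by 3.16 ± 0.38 in RafGOFscrib- (n = 3, 8.95-fold, adjusted p = 4.33e-05) and by 3.24 ± 0.28 in RasV12scrib- (n = 4, 9.45-fold, adjusted p = 6.87e-08). A call as higher was shared by 5.72% of features in RasV12cdc42-, 3.65% in RasV12baz-, 3.65% in RafGOFscrib- and 10.4% in RasV12scrib-, and 0.75% were called higher in all 4. By size of the change Mmp1 had rank 4 from the top in RasV12cdc42-, rank 2 in RasV12baz-, rank 3 in RafGOFscrib- and rank 18 in RasV12scrib-. The 4 tests draw on wild-type reference RNA that the arrays may share, so they are not independent of one another.

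The position of Mmp1 within each array does not depend on where the array's zero lies. It ranked between 1 and 10 from the top on the RasV12cdc42- arrays, between 4 and 18 in RasV12baz-, between 9 and 24 in RafGOFscrib- and between 16 and 42 in RasV12scrib-. On RasV12cdc42- replicate 2 Mmp1 had the highest ratio of all features. Even the lowest rank, on RasV12scrib- replicate 3, was within the top 0.375% of features. The call of Mmp1 as higher held in each genotype under each of 23 other settings, with adjusted p of at most 0.00149.

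**Figure D2:**
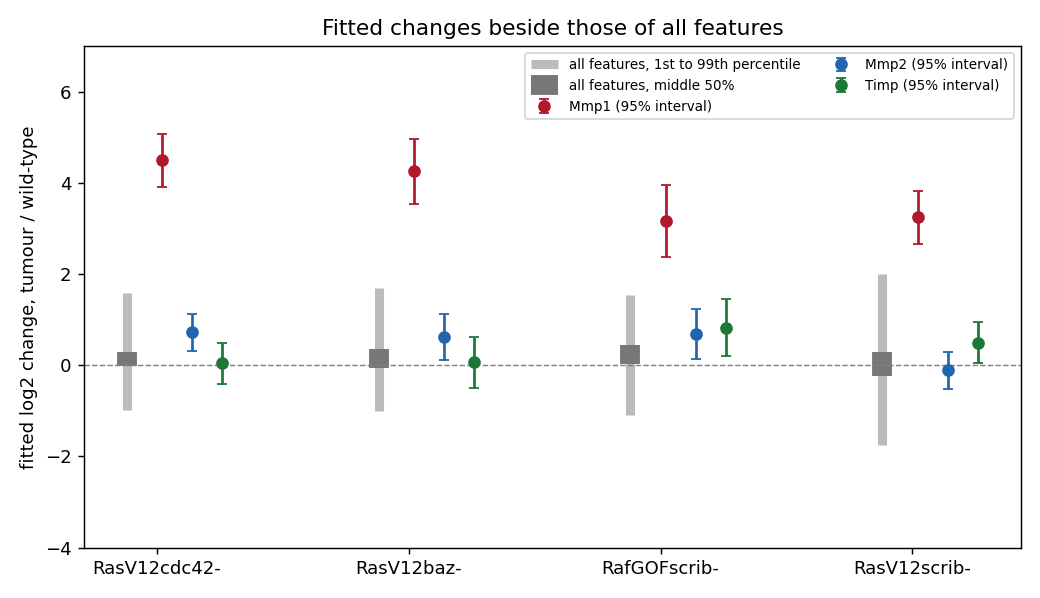
Fitted log2 change against wild-type (y axis) of Mmp1, Mmp2 and Timp with 95% intervals in the 4 genotypes, beside the spread of all 11196 features (light bar, 1st to 99th percentile; dark bar, middle 50%). The intervals of Mmp1 lie wholly above the 99th percentile of all features, which is 1.57 in RasV12cdc42-, 1.70 in RasV12baz-, 1.54 in RafGOFscrib- and 1.99 in RasV12scrib-.

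Among genotypes the mean Mmp1 ratio was higher in RasV12cdc42- and RasV12baz- than in RafGOFscrib- and RasV12scrib-, but none of these differences passed the test and their sizes depended on the normalization. The mean log2 ratio was 4.49 ± 0.27 in RasV12cdc42- (SD, n = 4), 4.22 ± 1.12 in RasV12baz- (n = 4), 3.13 ± 0.36 in RafGOFscrib- (n = 3) and 3.24 ± 0.30 in RasV12scrib- (n = 4). The lowest RasV12cdc42- array, at 4.23, was above the highest of RasV12scrib- at 3.67 and of RafGOFscrib- at 3.48. The 4 RasV12baz- arrays ranged more widely, with replicate 3, at 2.94, among the values of the scrib tumours and replicate 4, at 3.69, level with the highest of them. RasV12baz- replicates 1 and 2 stood higher, at 5.48 and 4.76, on arrays with medians of 0.48 and 0.40. The array medians of replicates 3 and 4 were 0.02 and -0.05. Centring each array on its median left an SD of 0.89 in RasV12baz-.

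Between RasV12cdc42- and RasV12scrib- the difference was 1.25 ± 0.40 on the log2 scale (95% interval 0.43 to 2.08, adjusted p = 0.100). It was 1.33 ± 0.47 between RasV12cdc42- and RafGOFscrib- (0.35 to 2.32, adjusted p = 0.412). Both SEs rest on 1 spread per feature shared by all 4 genotypes, to which the wide RasV12baz- arrays (SD 1.12) add. Replicates without overlap, as in both of these pairs, were seen for 8.8% of all features in the first pair and 12.8% in the second. Of all features 3.51% were called in the first pair and 0.598% in the second. With the replicate number as a block the difference in the first pair was 1.25 (adjusted p = 0.104).

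RasV12baz- stood above RasV12scrib- by 1.01 ± 0.44 (0.09 to 1.94, adjusted p = 0.255) and above RafGOFscrib- by 1.09 ± 0.43 (0.20 to 1.98, adjusted p = 0.397), with overlapping replicates. Both values depended on single arrays: without RasV12baz- replicate 1 they were 0.59 and 0.67, and without replicate 3 they were 1.44 and 1.52. Of all features 3.02% were called in the first of these pairs and 0.464% in the second. The 2 neighbours at the top of the order, RasV12cdc42- and RasV12baz-, differed by 0.24 ± 0.44 (-0.68 to 1.16), and the 2 at the bottom, RafGOFscrib- and RasV12scrib-, by -0.08 ± 0.47 (-1.06 to 0.91). In the pair at the top 0.0357% of features were called. The intervals span 0.622-fold to 2.24-fold for the first of these pairs and 0.479-fold to 1.87-fold for the second. Blocking on the replicate number gave -0.16 for RafGOFscrib- against RasV12scrib- (adjusted p = 0.923).

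Quantile normalization placed RafGOFscrib- elsewhere, with Mmp1 at 3.80 there and at 3.01 in RasV12scrib-. The difference between RafGOFscrib- and RasV12scrib- was then 0.79 (adjusted p = 0.396), that between RasV12cdc42- and RafGOFscrib- was 0.65 (adjusted p = 0.472), and that between RasV12baz- and RafGOFscrib- was 0.43 (adjusted p = 0.581).

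The F-test over the 4 genotypes gave Mmp1 an adjusted p of 0.105, with 3.97% of features called. This value depended on RasV12baz- replicate 3: without that array the adjusted p was 0.0133. It was also under the threshold with quantile normalization (0.0265) and, in a setting added after the data were seen, with centred arrays and no dye term (0.0415), and it was 0.639 with replicates 1-2 and 3-4 as random blocks. The RasV12cdc42- to RasV12scrib- difference likewise passed with quantile normalization (1.45, adjusted p = 0.0132), without RasV12baz- replicate 1 (adjusted p = 0.0375) and without RasV12baz- replicate 3 (adjusted p = 0.0350). These RasV12baz- arrays belong to neither genotype. Without either of them the difference stayed at 1.25 and its SE, from the shared spread, was 0.32.

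**Figure D3:**
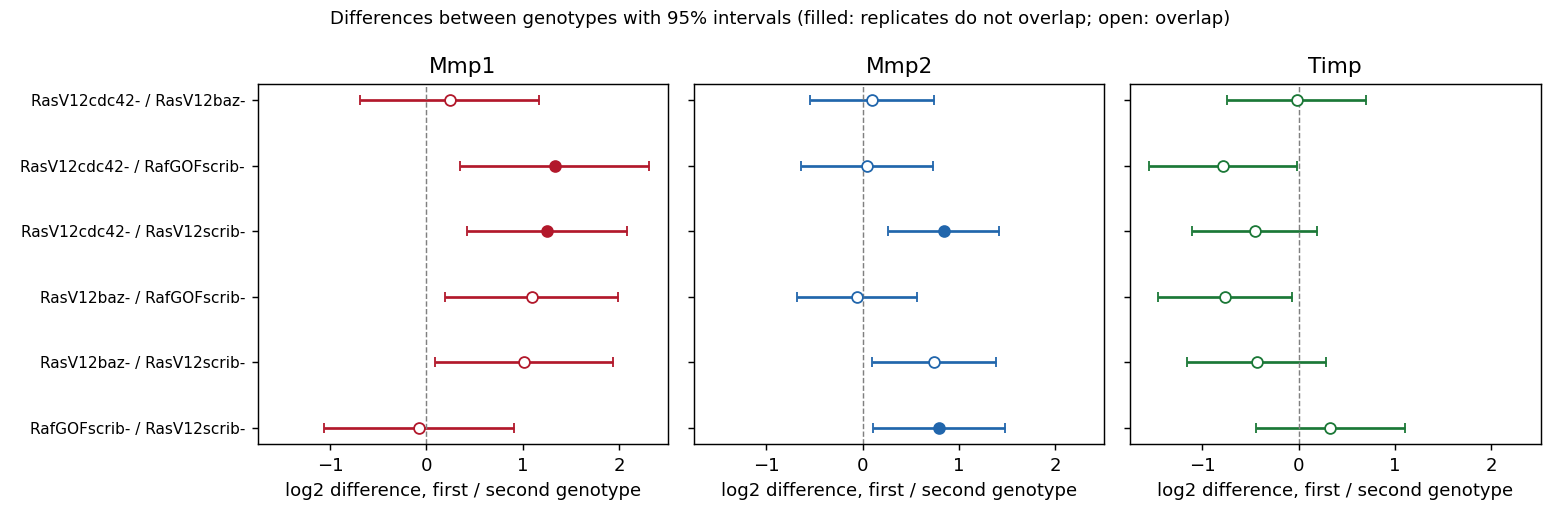
Log2 difference between pairs of genotypes, the first over the second (x axis), for Mmp1, Mmp2 and Timp with 95% intervals; filled points mark pairs whose replicates do not overlap. For Mmp1 the 4 pairs that set RasV12cdc42- or RasV12baz- against a scrib tumour lie at 1.01 to 1.33, and none of the 18 differences passed the threshold after adjustment over all features.

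Mmp2, the membrane-anchored protease, changed little beside Mmp1. Its log2 ratio was 0.98, 1.37, 0.37 and 0.19 on the RasV12cdc42- arrays, 0.94, 0.45, -0.18 and 0.49 on the RasV12baz- arrays, 0.68, 0.18 and 0.59 on the RafGOFscrib- replicates, and -0.33, 0.00, -0.02 and -0.12 on the RasV12scrib- arrays. No RasV12scrib- array was above the wild-type level of 0, whereas 10 of the 11 other replicates were. The median fitted change of all features was itself above 0, from 0.05 in RasV12scrib- to 0.24 in RafGOFscrib-. Against the median of its own array Mmp2 was above in 9 of 15 replicates. These were 3 of 4 in RasV12cdc42-, 3 of 4 in RasV12baz-, 3 of 3 in RafGOFscrib- and 0 of 4 in RasV12scrib-.

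RasV12cdc42- was the only genotype in which Mmp2 passed the test, at 0.73 ± 0.19 on the log2 scale (SE, n = 4, 1.65-fold, adjusted p = 0.0238), where 8.14% of features were called in either direction. Most of that value came from replicates 1 and 2, the arrays with tumour RNA in Cy5, which averaged 1.17, against 0.28 on replicates 3 and 4, with tumour RNA in Cy3. Dye and replicate pair cannot be told apart here. On the Cy3 arrays alone the call was lost (0.28, adjusted p = 0.750), as it was with the replicate pairs as random blocks (adjusted p = 0.290), without RasV12cdc42- replicate 1 (0.70, adjusted p = 0.125), without replicate 2 (0.55, adjusted p = 0.249) and without replicate 3 (0.79, adjusted p = 0.0775).

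In the other genotypes the fitted Mmp2 change was 0.62 ± 0.24 in RasV12baz- (adjusted p = 0.166, with 4.75% of features called), 0.68 ± 0.26 in RafGOFscrib- (adjusted p = 0.162, 4.74% called) and -0.12 ± 0.19 in RasV12scrib- (adjusted p = 0.746, 22.1% called). The first 2 include a dye correction taken from the other genotypes, and the plain replicate means were 0.43 and 0.48. The genotypes that gave this correction differed in direction. Cy5 arrays averaged above Cy3 arrays in RasV12cdc42- (1.17 against 0.28) but below them in RasV12scrib- (-0.17 against -0.06). The 95% interval in RasV12scrib- was -0.52 to 0.29, and without RasV12scrib- replicate 1 the value was 0.047 (-0.42 to 0.52).

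The RasV12cdc42- and RasV12scrib- replicates of Mmp2 did not overlap, and the difference was 0.84 ± 0.28 on the log2 scale (0.26 to 1.42, adjusted p = 0.117). In that pair 8.8% of all features showed no overlap and 3.51% were called. Blocking on the replicate number gave 0.84 (adjusted p = 0.0959). RafGOFscrib- and RasV12scrib- did not overlap either, at 0.79 ± 0.33 (0.11 to 1.48, adjusted p = 0.264), in a pair where 15.3% of features showed no overlap and 1.18% were called. With the replicate number as a block, 55 features were called in this pair in place of 132, and the Mmp2 difference was 0.85 (adjusted p = 0.216). The F-test over the 4 genotypes gave Mmp2 an adjusted p of 0.238.

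Timp, the inhibitor of both proteases, did not pass the test in any genotype. Its log2 ratio was 0.01, -0.17, 0.37 and -0.06 on the RasV12cdc42- arrays, 0.80, 0.29, 0.04 and -0.05 on the RasV12baz- arrays, 1.06, 0.32 and 1.73 on the RafGOFscrib- replicates, and -0.35, 0.81, 0.74 and 0.79 on the RasV12scrib- arrays. The values of RasV12cdc42- lay on both sides of the wild-type level, all 3 RafGOFscrib- replicates lay above it, and 3 of 4 RasV12scrib- arrays lay above it with replicate 1 below. The median of all features was itself above 0 on every RafGOFscrib- replicate, at 0.11 to 0.47. Timp was above its array median on 3 of 3 RafGOFscrib- replicates. It was above it on 2 of 4 RasV12cdc42-, 3 of 4 RasV12baz- and 3 of 4 RasV12scrib- arrays.

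The fitted Timp change was 0.04 ± 0.22 in RasV12cdc42- (95% interval -0.42 to 0.50, adjusted p = 0.939) and 0.06 ± 0.27 in RasV12baz- (-0.50 to 0.62, adjusted p = 0.942). It was 0.83 ± 0.30 in RafGOFscrib- (0.20 to 1.45, adjusted p = 0.127) and 0.50 ± 0.22 in RasV12scrib- (0.04 to 0.95, adjusted p = 0.121). Both scrib values depended on single arrays. Without RafGOFscrib- replicate 3 the RafGOFscrib- value was 1.18 (adjusted p = 0.0489), and without replicate 4 it was 0.48 (adjusted p = 0.507). Without RasV12scrib- replicate 1 the RasV12scrib- value was 0.75 (adjusted p = 0.0378), and without replicate 3 it was 0.32 (adjusted p = 0.417).

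The dye term also mattered for Timp in RafGOFscrib-, which has no array with tumour RNA in Cy5. A fit without that term gave the plain mean of 1.03 ± 0.70 (SD, n = 3) and passed the threshold (adjusted p = 0.0165). With each array centred on its median the fitted value was 0.59 (adjusted p = 0.264). Without RasV12scrib- replicate 1, an array of another genotype with tumour RNA in Cy5, the RafGOFscrib- value was 0.95 (adjusted p = 0.0618). The dye term itself was -0.42 for Timp (adjusted p = 0.627), 0.39 for Mmp2 (adjusted p = 0.614) and 0.07 for Mmp1 (adjusted p = 0.962).

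None of the 6 differences between genotypes passed the threshold for Timp. The largest in size was -0.79 ± 0.37 for RasV12cdc42- against RafGOFscrib- (-1.56 to -0.02, adjusted p = 0.726), followed by -0.77 ± 0.33 for RasV12baz- against RafGOFscrib- (-1.46 to -0.07, adjusted p = 0.491). In both pairs the replicates overlapped. Without RafGOFscrib- replicate 4 these differences were -0.44 and -0.42, and without replicate 3 they were -1.14 and -1.12. The F-test over the 4 genotypes gave an adjusted p of 0.425. Against RasV12scrib-, with the replicate number as a block, Timp differed by -0.46 in RasV12cdc42- (adjusted p = 0.601) and 0.35 in RafGOFscrib- (adjusted p = 0.763).

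Subtracting the Timp ratio from a protease ratio of the same array removes the zero of that array and shows how far the protease and its inhibitor moved apart. These differences are given without a test. Mmp1 minus Timp was above 0 on all 15 replicates and averaged 4.46 ± 0.43 in RasV12cdc42- (SD, n = 4), 3.95 ± 0.80 in RasV12baz- (n = 4), 2.09 ± 0.93 in RafGOFscrib- (n = 3) and 2.74 ± 0.51 in RasV12scrib- (n = 4). The lowest RasV12cdc42- array, at 4.03, lay above the highest scrib replicate, at 3.39 in RasV12scrib- replicate 1. The Mmp1 ratio alone already separated these genotypes, and how often differences between other features do so was not examined. RafGOFscrib- replicate 4 had the smallest gap of all, 1.04, with both the lowest Mmp1 ratio and the highest Timp ratio of any replicate.

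Mmp2 minus Timp averaged 0.69 ± 0.70 in RasV12cdc42- and 0.16 ± 0.31 in RasV12baz-, against -0.55 ± 0.52 in RafGOFscrib- and -0.61 ± 0.43 in RasV12scrib-. It was above 0 on 4 of 4 RasV12cdc42- arrays, where replicate 3 was level at 0.0020, and on 3 of 4 RasV12baz- arrays. It was below 0 on 3 of 3 RafGOFscrib- replicates and on 3 of 4 RasV12scrib- arrays, the exception being replicate 1 at 0.026. These means mix dye orientations, since RasV12baz- and RafGOFscrib- had tumour RNA in Cy3 on every array. With the dye term, a setting added after the data were seen, Mmp2 minus Timp was 0.56 in RasV12baz- and -0.15 in RafGOFscrib-, and Mmp1 minus Timp was 4.19 and 2.34 in the same order. The values of RasV12cdc42- and RasV12scrib- were the same with and without that term. Mmp1 minus Mmp2 lay between 2.18 and 4.54 on the 15 replicates, so Mmp1 moved further than the other protease on each array.

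**Figure D4:**
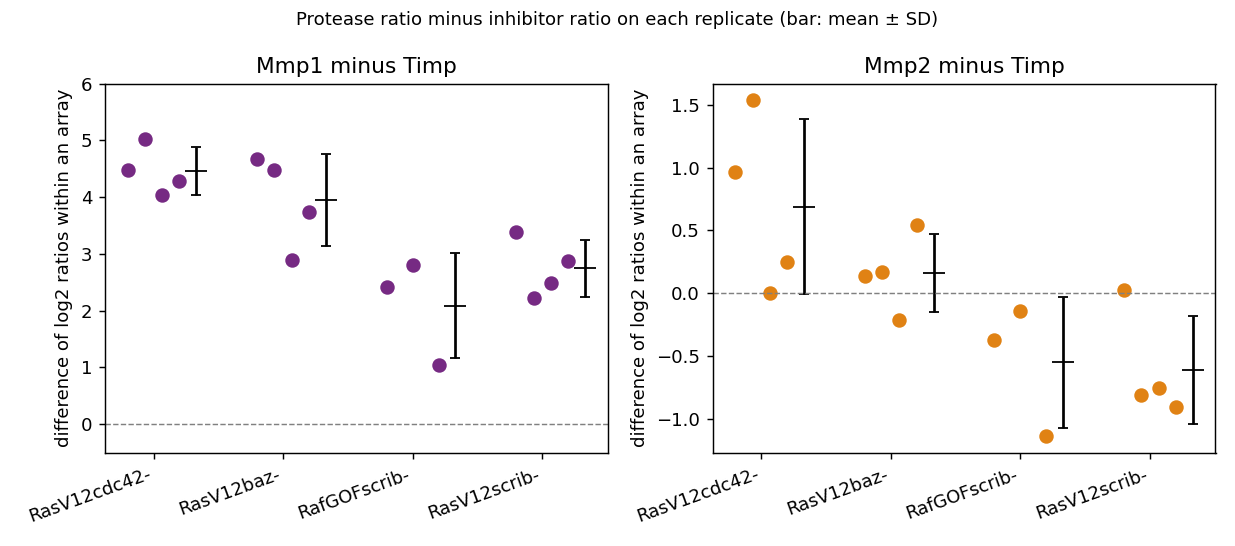
Difference of log2 ratios within each array (y axis), Mmp1 minus Timp on the left and Mmp2 minus Timp on the right, by genotype with the mean ± SD. Mmp1 minus Timp is above 1 on all 15 replicates, and Mmp2 minus Timp runs from 1.54 in RasV12cdc42- replicate 2 down to -1.14 in RafGOFscrib- replicate 4.

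Over the 15 replicates the SD of the Mmp1 ratio was 0.84, larger than that of 94.9% of features, against 0.48 for Mmp2 (62.8%) and 0.56 for Timp (77.8%). After each array was centred on its median, the feature most like Mmp1 across these replicates was FBgn0025631 (Pearson r = 0.87, Spearman rho = 0.87). For Mmp2 it was FBgn0036262 (r = 0.87, rho = 0.86) and for Timp FBgn0032422 (r = 0.85, rho = 0.76). These correlations are descriptions over 15 replicates that may share their wild-type RNA, picked as the highest of 11196, and no table used here names the features.

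Of 132 further genes listed for this comparison, 2 could be tied to a feature, LanA and the fat body gene Lsp2. None of the 18 genes of JNK signalling, the 15 other extracellular proteases and inhibitors, the 19 adhesion and invasion genes and the 9 tumour transcription factors could be. LanA, which encodes a laminin chain of the basement membrane and was 1 of 13 such genes, changed by 0.13 ± 0.21 in RasV12cdc42- (adjusted p = 0.779), 0.08 ± 0.26 in RasV12baz- (adjusted p = 0.920), 0.10 ± 0.28 in RafGOFscrib- (adjusted p = 0.863) and -0.20 ± 0.21 in RasV12scrib- (adjusted p = 0.574), all on the log2 scale. Lsp2, the 1 of 7 fat body genes that matched, fell by 3.92 in RasV12scrib- (adjusted p = 0.000143) and was at -1.69 in RasV12cdc42- (adjusted p = 0.123), 0.07 in RasV12baz- (adjusted p = 0.977) and -0.73 in RafGOFscrib- (adjusted p = 0.662). Its log2 ratio was -0.46, -1.49, -2.31 and -2.49 on the RasV12cdc42- arrays, 2.60, 0.36, 0.03 and -3.22 on the RasV12baz- arrays, -3.05, 0.08 and 0.40 on the RafGOFscrib- replicates, and -4.40, -4.44, -4.36 and -2.49 on the RasV12scrib- arrays. The fitted difference of RasV12baz- against RasV12scrib- was 3.99 ± 1.01 (adjusted p = 0.0373), while the replicates of these genotypes overlapped. The part of fat body RNA in the values of the 3 genes was not tested.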

How the data were processed

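The authors deposited log2 ratios of 11196 features on 16 arrays. The sources used here do not describe scanning, background correction or normalization, and the log base was inferred from values equal to the log2 of ratios of whole numbers up to 9 (tolerance 1e-05). Such values were 1 of 16 for Mmp2 (a ratio of 1), 2 of 16 for Timp (1.67 and 1.25) and 0 for Mmp1. A ratio of 1 is 0 in any log base, so the Mmp2 value does not bear on the base. Spot signals were not analysed here, so precision rests on the number of arrays. Labels do not say whether extracts came from separate cultures of larvae, and p-values measure the spread between these arrays. A refit with replicates 1-2 and 3-4 as random blocks estimated a correlation of 0.57 between arrays of a block, over all features. The main fit counts these arrays as independent, so its SEs and p-values may be too small.

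With R 4.3.3 and limma 3.58.1, genotype means and a dye term were fitted to 15 replicates, with empirical Bayes moderation. Means were tested against 0 for wild-type (the reference's own spread is left out) and against each other. RafGOFscrib- and RasV12baz- had no swapped array, so their fitted values carry a dye correction from RasV12scrib- and RasV12cdc42-. P-values are two-sided and adjusted by Benjamini-Hochberg over all features, with a threshold of 0.05, and intervals are at 95%. The fit was tested on simulated data. Same-numbered arrays deviated together, each with a correlation over 0.1, for RasV12cdc42- with RasV12scrib- (0.21 to 0.28 over 4 pairs) and RafGOFscrib- with RasV12scrib- (0.13 to 0.28 over 3). The numbers were therefore taken to pair these genotypes, but only in the refits with the replicate number as a block. The main fit ignores this pairing. This pairing comes from the data, since the labels give only a number, and the other 4 pairs of genotypes did not meet it. Figures used Python 3.11.15 and matplotlib 3.10.9. The 3 genes are always named. Listed genes are counted where matched, and both matched genes are given with values, although neither was called in 2 genotypes as the rule asked, an exception made after their values were seen. Of the 5 features most like each gene, the first is named. Genes and lists were chosen with earlier results of these data known. Gene sequences were not used here.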

Additional observations from a re-analysis of the deposited data

Results flagged for a closer look

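Timp on RasV12scrib- replicate 1 was -0.35, apart from the other 3 arrays of that genotype at 0.74 to 0.81. On that array, which carried tumour RNA in Cy5, Mmp1 was 3.04 and Mmp2 -0.33. RasV12scrib- replicate 3, with the same dye orientation, had a Timp value of 0.74. The same array stood apart in Mmp2 minus Timp, at 0.026 against -0.91 to -0.75 on the other 3. Chance marks about 1 in 20 such groups of 4, and of the 18 sets of 4 arrays examined 2 were marked, both through this Timp value.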

How the results depend on the processing

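Each of the 33 results for a gene (3 genes in 10 comparisons, and the F-test for each) was refitted under 23 other settings, 15 of which left out 1 replicate each (the averaged pair of RafGOFscrib- counts as replicate 1). The rise of Mmp1 against wild-type kept its call in all 4 genotypes, with log2 values from 2.83 in RafGOFscrib- to 4.68 in RasV12baz-. Mmp2 in RasV12cdc42- lost its call on the Cy3 arrays, those carrying tumour RNA in that dye (0.28) and, at 0.73, with replicates 1-2 and 3-4 as random blocks. Leaving out replicates gave 0.55 to 0.86 there. Calls appeared for Mmp2 in RafGOFscrib- with the near-identical arrays kept apart (0.73, adjusted p = 0.0408) and for Timp in RafGOFscrib- with those arrays kept apart (0.83, adjusted p = 0.0387), without the dye term (1.03) and on the Cy3 arrays (1.03, adjusted p = 0.0161). Timp with replicates left out ranged from 0.48 to 1.18 in RafGOFscrib- and from 0.32 to 0.75 in RasV12scrib-. Mmp1 in RasV12cdc42- against RasV12scrib- passed with quantile normalization (1.45) and ranged from 1.12 to 1.44 with replicates left out. The adjusted p of its F-test was 0.0265 with quantile normalization, 0.0415 with centred arrays and no dye term, and 0.0133 to 0.237 with replicates left out. With the dye term, Mmp2 minus Timp in RasV12baz- was 0.56 (0.16 as a plain mean). The cause was not tested for any of these.

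For the other 4 pairs of genotypes the samples share only a replicate number: over all 21 same-numbered pairs of arrays, 12 correlations were over 0.1 (range -0.35 to 0.36). With the replicate number as a block no call of the 3 genes changed (Mmp2 in RasV12cdc42- at 0.73, adjusted p = 0.0222). The counts of called features did: 344 in RafGOFscrib- against wild-type (531 without the block), 35 in RasV12cdc42- against RafGOFscrib- (67), 204 in RasV12baz- against RasV12scrib- (338), 55 in RafGOFscrib- against RasV12scrib- (132) and 0 in RasV12cdc42- against RasV12baz- (4). In this last pair 703 of 11196 features had an unadjusted p under 0.05 by limma. Where nothing differs, a share of about 0.05 of all features falls under that limit, so this count does not show that features differ.

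Counts of called features against wild-type were 911 in RasV12cdc42-, 532 in RasV12baz-, 531 in RafGOFscrib- and 2469 in RasV12scrib-, and depended on the setting. In that order they were 1758, 1509 and 1078 with quantile normalization (the first 3), 524, 1024, 1052 and 1210 on the Cy3 arrays, and 269, 175, 273 and 1131 with random blocks. Without the dye term they were 983 in RasV12baz- and 1016 in RafGOFscrib-, with centring added 854 in RasV12baz-, and 1540 in RafGOFscrib- with the near-identical arrays kept apart. Leaving out replicates gave 466 to 1102, 241 to 624, 158 to 648 and 1848 to 2580.

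Between genotypes, RasV12cdc42- against RasV12baz- had 46 called features with quantile normalization, 2 on the Cy3 arrays, 0 with random blocks (by limma 228 had an unadjusted p under 0.05), 14 without the dye term and 23 with centring added. RasV12cdc42- against RafGOFscrib- had 221, 32 and 6 under the first 3 of these, 112 with the near-identical arrays apart and 112 with centring and no dye term. RasV12cdc42- against RasV12scrib- (393) had 129 on the Cy3 arrays and 52 with random blocks. RasV12baz- against RafGOFscrib- (52) had 94 with centring, 352 with quantile normalization, 210 with the near-identical arrays apart, 10 with random blocks and 96 with centring and no dye term. RasV12baz- against RasV12scrib- had 640 without the dye term, 162 with quantile normalization, 165 on the Cy3 arrays, 27 with random blocks and 598 with centring and no dye term. RafGOFscrib- against RasV12scrib- had 366 without the dye term, 382 with the near-identical arrays apart, 13 with random blocks and 225 with centring and no dye term. The F-test (445) had 193 on the Cy3 arrays and 64 with random blocks. Leaving out replicates gave, in the same order, 0 (without RasV12cdc42- replicate 4, where limma left 423 with an unadjusted p under 0.05) to 37, 12 to 78, 227 to 451, 20 to 98, 128 to 649, 35 to 237 and, for the F-test, 297 to 669. The unadjusted counts of 228 and 423 are out of 11196 features. They likewise do not show that features differ.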
